A study of Mus musculus with 15 samples.

Results

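The heterogeneous nuclear ribonucleoproteins (hnRNPs) and related splicing repressors were followed in CD8+ T cells primed in vivo with antigen alone (Ag) or with antigen and costimulation (Ag+Costim). The group was set by name, with earlier results of these data known. Its 30 symbols were matched to GENCODE M21 identifiers, and these 30 genes stand among 55536 annotated genes of the count table. Donor cells in both groups were naive splenic CD8+ T cells of Rag-deficient OT-I mice, whose transgenic T cell receptor recognises the ovalbumin peptide SIINFEKL, and recipients were wild-type C57BL/6J mice. Ag animals received the peptide with rat IgG, and Ag+Costim animals received it with agonist antibodies against the receptors CD134 (OX40) and CD137 (4-1BB). On day 4 per the labels, OT-I cells were sorted from spleen and lymph nodes by CD8, CD45.1 and both chains of the transgenic receptor. The donor and receptor are thus shared by all libraries, and the age of the animals is not given for each library. Poly(A) RNA was read in 5 libraries per group, which the study describes as biological replicates.

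hnRNPs coat nascent transcripts in the nucleus. Many of them bind silencer elements in or beside exons and lower the use of the neighbouring splice sites, which opposes the SR proteins that favour exon inclusion. Several also act on mRNA decay, export and translation, and a number of them limit their own level by steering part of their pre-mRNA into transcripts that are degraded. In T cells, members of the wider family are known for exon skipping in the phosphatase CD45 upon activation.

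Estimated counts summed to between 59598556 (Ag replicate 3) and 639070261 (Ag+Costim replicate 3) per library. These totals derive from read coverage and are not read numbers. Genes with at least 1 count numbered between 20714 (Ag replicate 5) and 51778 (Ag replicate 3) in the Ag group and between 28727 and 30340 in the Ag+Costim group. Defining CD8 T cell markers were high throughout, with 8 genes summing to between 4312 and 8232 CPM (counts scaled to a common library total, with TMM factors) in Ag and between 5990 and 6999 CPM in Ag+Costim. The Ag libraries stood apart from each other more than the Ag+Costim libraries did. In bulk RNA of this kind, fewer cells of a type and less RNA per cell cannot be told apart.

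Costimulated libraries held more hnRNP mRNA on average, the Ag libraries varied widely, and no gene passed the main test. The fitted log2 fold change (Ag+Costim over Ag) was above 0 for 28 of the 30 genes (26 under total-count or upper-quartile scaling), with a median of 0.56. It ran from 1.19 for Raly, a uridine-tract binding relative of hnRNP C, down to -0.30 for Pcbp3, a poly(C)-binding protein at low level. Genes tested at a mean of 10 CPM or more had a median of 0.24, and 75.6% of them were above 0, so most genes of such a level also lay above 0. Over all 24262 genes tested the median was -0.32. The cut at 10 CPM is a floor and does not match genes to the 30 for level. Relative to the genes at 10 CPM or more, the median of the 30 genes lay 0.32 higher on the log2 scale. This gap was between 0.32 and 0.34 under the other scalings tried (DESeq2 size factors, total counts, upper quartile), which shift all genes nearly alike and so could hardly move it. It ran from 0.30 to 0.41 leaving out 1 library and was 0.56 in a fit with a quality weight for each library (limma's voom).

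By edgeR's quasi-likelihood test with Benjamini-Hochberg (BH) adjustment, 0 of the 30 genes passed 0.05, as did 0% of all genes tested. At an unadjusted p under 0.05, 21 of the 30 passed and all 21 were higher in Ag+Costim, beside 7.89% of all genes tested that were higher at that level. That share is not matched for level: 37.7% of all genes tested had a fold change above 0, against 75.6% at 10 CPM or more. Other models of the same counts called more. DESeq2 placed 11 of the 30 higher and 0 lower, beside 9.84% higher among genes at 10 CPM or more. The 11 were Raly, Dazap1, Hnrnpd, Khsrp, Hnrnpa2b1, Hnrnpm, Hnrnph2, Hnrnpr, Hnrnpk, Hnrnpul1 and Hnrnpa0, with DESeq2 adjusted p from 4.31e-06 (Raly) to 0.0376 (Hnrnpa2b1). limma's voom with a quality weight for each library placed 27 higher and 0 lower, beside 57.6% higher among those genes. That fit gave Ag replicates 2 and 5 weights of 0.0986 and 0.0656, against weights between 1.70 and 3.35 for the Ag+Costim libraries. A count that makes no assumption on spread asks whether every Ag+Costim library lies above every Ag library. It held for 9 of the 30 genes, beside 4.48% of all genes tested and 11.3% of those at 10 CPM or more, and the reverse held for 0 genes, beside 0.22%. Without Ag replicate 2 the count was 16 of 30, beside 15.7% at 10 CPM or more. With upper-quartile scaling it was 6 of 30, beside 3.72%, and Hnrnpk, Hnrnpm and Hnrnpul1 then overlapped between the groups. With total counts it was 10, beside 7.26%, and Hnrnpul1 again overlapped.

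**Figure D1:**
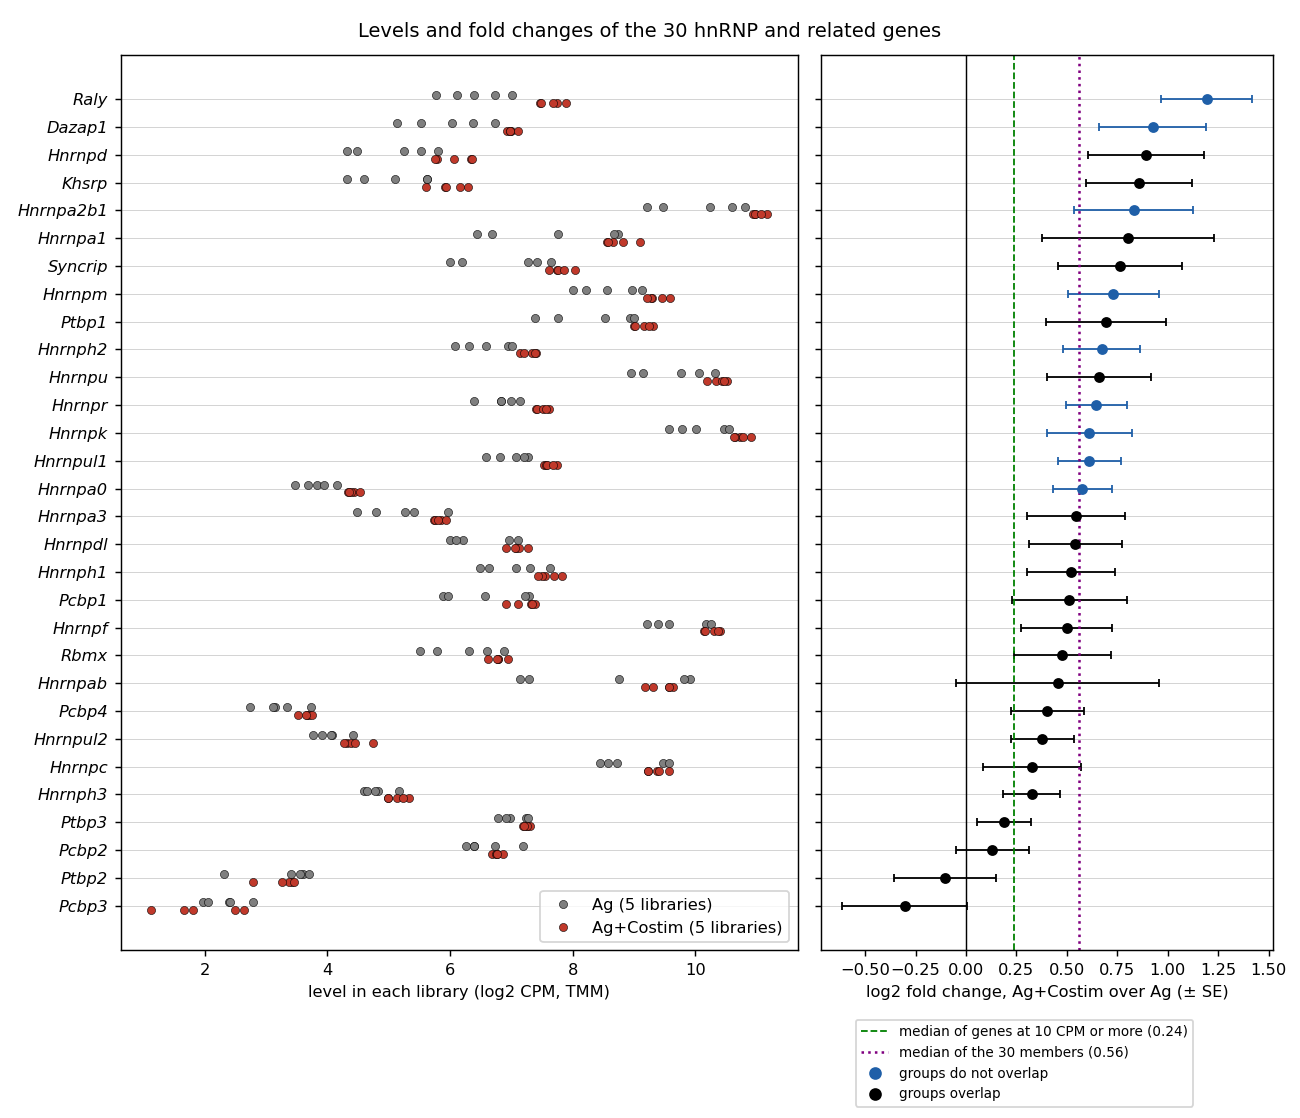
Levels of the 30 genes in each of the 5 Ag (grey) and 5 Ag+Costim (red) libraries in log2 CPM after TMM scaling (left), and the fitted log2 fold change with its standard error (right), blue where the groups do not overlap. Ag points spread widely while Ag+Costim points cluster, 9 genes show no overlap, and the 2 genes below 0 are Ptbp2 and Pcbp3, which Pcbp2 and Ptbp3 join under total-count or upper-quartile scaling.

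The spread within Ag followed the library. Ag replicates 1 and 4 were the 2 lowest Ag libraries in 22 of the 30 genes, and Ag replicates 2 and 5 were the 2 highest in 22. Summed over the 30 genes, the level was 4430 CPM in Ag replicate 1, 10685 CPM in replicate 2, 7166 CPM in replicate 3, 5137 CPM in replicate 4 and 10223 CPM in replicate 5. The Ag+Costim libraries summed to between 10838 and 12869 CPM, all above the Ag libraries, with replicates 2 and 5 of Ag close below them. The median coefficient of variation was 33.0% in Ag and 9.41% in Ag+Costim, and it was larger in Ag for 29 of the 30 genes.

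Markers of other states and cell types moved across the same libraries. Summed levels of 11 proliferation genes were 755, 5830, 3619, 794 and 6406 CPM in Ag replicates 1 to 5, and between 5732 and 7098 CPM in Ag+Costim. The low values fell in the same Ag replicates 1 and 4 that were low for hnRNP genes. Markers of B cells (5 genes) summed to 112, 17.5, 293, 141 and 20.8 CPM in Ag against 14.4 to 31.9 CPM in Ag+Costim. Erythroid markers (6 genes) summed to 126, 30.5, 1103, 43.7 and 14.7 CPM in Ag against 3.80 to 39.8 CPM in Ag+Costim. Both lists were thus highest in Ag replicates 1, 3 and 4, the 3 lowest in summed hnRNP level. NK markers (2 genes) stood between 2.09 and 16.4 CPM in Ag and between 0.473 and 2.16 CPM in Ag+Costim. Myeloid markers (7 genes, 38.5 to 130 CPM in Ag, 67.1 to 158 CPM in Ag+Costim) and CD4 T cell markers (2 genes, 1.13 to 15.7 CPM in Ag, 2.34 to 5.05 CPM in Ag+Costim) overlapped between groups. The part of these cells in the hnRNP values was not tested.

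**Figure D2:**
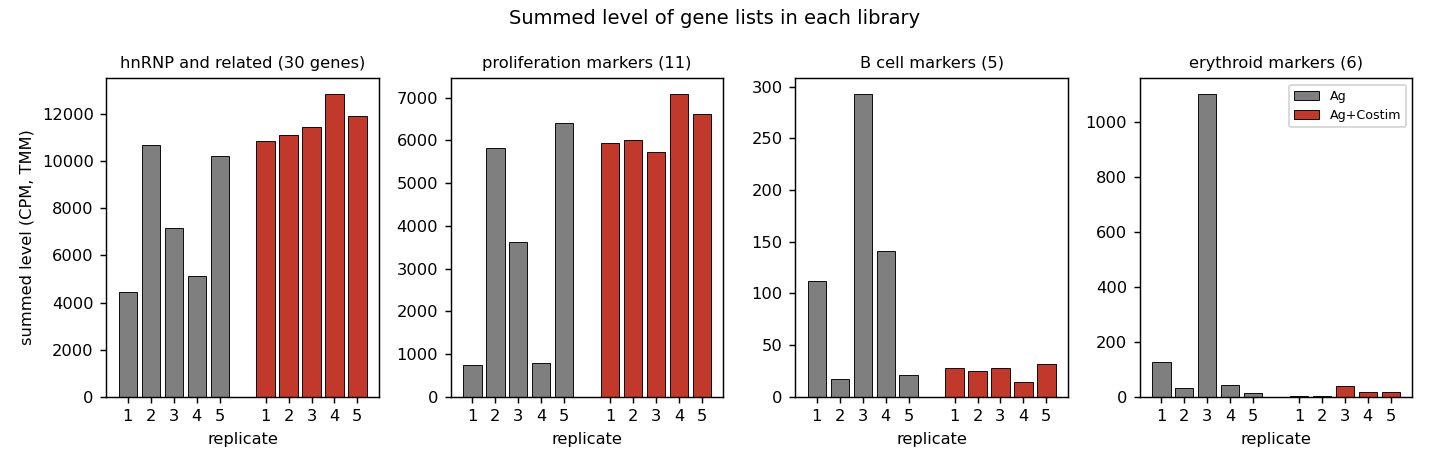
Summed level in CPM (TMM scaling) of the 30 hnRNP and related genes, 11 proliferation markers, 5 B cell markers and 6 erythroid markers in each library (bars, Ag replicates 1 to 5 in grey, Ag+Costim replicates 1 to 5 in red). The hnRNP and proliferation bars are lowest in Ag replicates 1 and 4, and the B cell and erythroid bars are highest in Ag replicate 3.

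Compared per transcript length, in TPM (transcript counts per length, scaled to a common total), Hnrnpa2b1 was the most abundant of the 30 genes in Ag+Costim at 1969 ± 109 TPM (SD, n = 5). Hnrnpf (1097 ± 96.6 TPM) and Hnrnpk (992 ± 68.3 TPM) followed, and those neighbours overlapped in their spread. Hnrnpc (544 ± 63.3 TPM), Hnrnpab (529.8 ± 65.8 TPM), Hnrnpm (412 ± 39.8 TPM), Hnrnpa1 (368 ± 53.3 TPM), Ptbp1 (329.7 ± 31.1 TPM) and Hnrnpu (308 ± 44.5 TPM) came next after a wide gap. Among these, neighbours lay within each other's spread except at the step from Hnrnpab to Hnrnpm. The lower end held Pcbp4 at 9.83 ± 0.298 TPM, Hnrnpul2 at 6.52 ± 0.884 TPM, Ptbp2 at 4.95 ± 0.782 TPM and Pcbp3 at 2.96 ± 1.18 TPM. The neuronal paralogue Ptbp2 was thus present at a small fraction of the level of Ptbp1.

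Raly showed the largest difference. It encodes an RNA-binding protein of the hnRNP C family that favours uridine-rich stretches. Raly (chr2:154791096-154867261, plus strand, GRCm38/mm10 as are all coordinates here) measured 54.9, 128, 83.5, 69.4 and 106 CPM in Ag replicates 1 to 5 and 214, 204, 238, 176 and 179 CPM in Ag+Costim replicates 1 to 5. Costimulated libraries were all higher than the Ag libraries, the lowest of them well clear of Ag replicate 2. The means were 88.5 ± 29.2 CPM and 202 ± 25.9 CPM (SD, n = 5), with a log2 fold change of 1.19 (SE 0.23) and an edgeR adjusted p of 0.134. Its paralogue Hnrnpc, which binds uridine tracts as a tetramer and measures the length of nascent RNA, differed less, with 525 ± 197 CPM in Ag, 659 ± 63.7 CPM in Ag+Costim and overlapping groups (log2 fold change 0.33, SE 0.24).

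The balance inside the C family therefore differed. In shares of the family's summed TPM, Raly made up 16.5, 15.4, 16.9, 19.5 and 13.5% in Ag and 30.5, 30.1, 28.8, 21.6 and 25.5% in Ag+Costim. All Ag+Costim libraries were above all Ag libraries, with Ag+Costim replicate 4 nearest to the Ag range. Hnrnpc held the rest, 83.6% on average in Ag and 72.7% in Ag+Costim. Because the 2 shares sum to 100%, they are one measurement and not a pair of results. No test was applied to shares, which are given as a description. Of 26 genes in 8 families, 4 had shares without overlap (Raly, Hnrnpc, Hnrnph2 and Pcbp2), and 8 had them without Ag replicate 5. These counts include both Raly and Hnrnpc, and no such count was made for families of other genes, so they have no background.

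Among the A/B proteins, which bind UAG-containing silencers through paired RNA recognition motifs, Hnrnpa2b1 and Hnrnpa0 separated the groups. Levels of Hnrnpa2b1 (chr6:51460932-51469894, minus strand) were 592, 1783, 1211, 709 and 1550.5 CPM in Ag and 1998, 1967, 2001, 2293 and 2137 CPM in Ag+Costim. No overlap was seen, although Ag replicates 2 and 5 came close to the costimulated range. Means were 1169 ± 517 and 2079 ± 136 CPM (log2 fold change 0.83, SE 0.29, edgeR adjusted p = 0.244). Hnrnpa0, an intronless relative, did so at 14.3 ± 2.58 against 21.3 ± 1.19 CPM (log2 fold change 0.58, SE 0.15). Hnrnpa1 (248 ± 162 against 432 ± 71.4 CPM) and Hnrnpa3 (38.7 ± 15.6 against 56.5 ± 3.18 CPM) overlapped. Processed pseudogenes that share their sequence make both uncertain, and the part of pseudogenes was not measured for these or other members. Within the family Hnrnpa2b1 took 83.0% of TPM in Ag and 83.1% in Ag+Costim.

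The F/H proteins recognise runs of guanines. Hnrnph2 (chrX:134601179-134607060, plus strand) measured 67.3, 122, 95.6, 79.3 and 129 CPM in Ag and 140.4, 148, 162, 168 and 168 CPM in Ag+Costim. The groups did not overlap, with Ag replicates 2 and 5 again nearest, and the log2 fold change was 0.67 (SE 0.19, edgeR adjusted p = 0.201). Its share of family TPM was 6.46 ± 0.33% in Ag against 7.25 ± 0.09% with costimulation (SD, n = 5), also without overlap, a difference of under 1 percentage point. Hnrnpf, the main F/H gene by TPM, differed from 880.4 ± 289 to 1243 ± 105 CPM and kept a share of 80.3% in Ag and 80.1% in Ag+Costim. Hnrnph1 (log2 fold change 0.52, SE 0.22) and Hnrnph3 (0.33, SE 0.14) overlapped between groups.

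**Figure D3:**
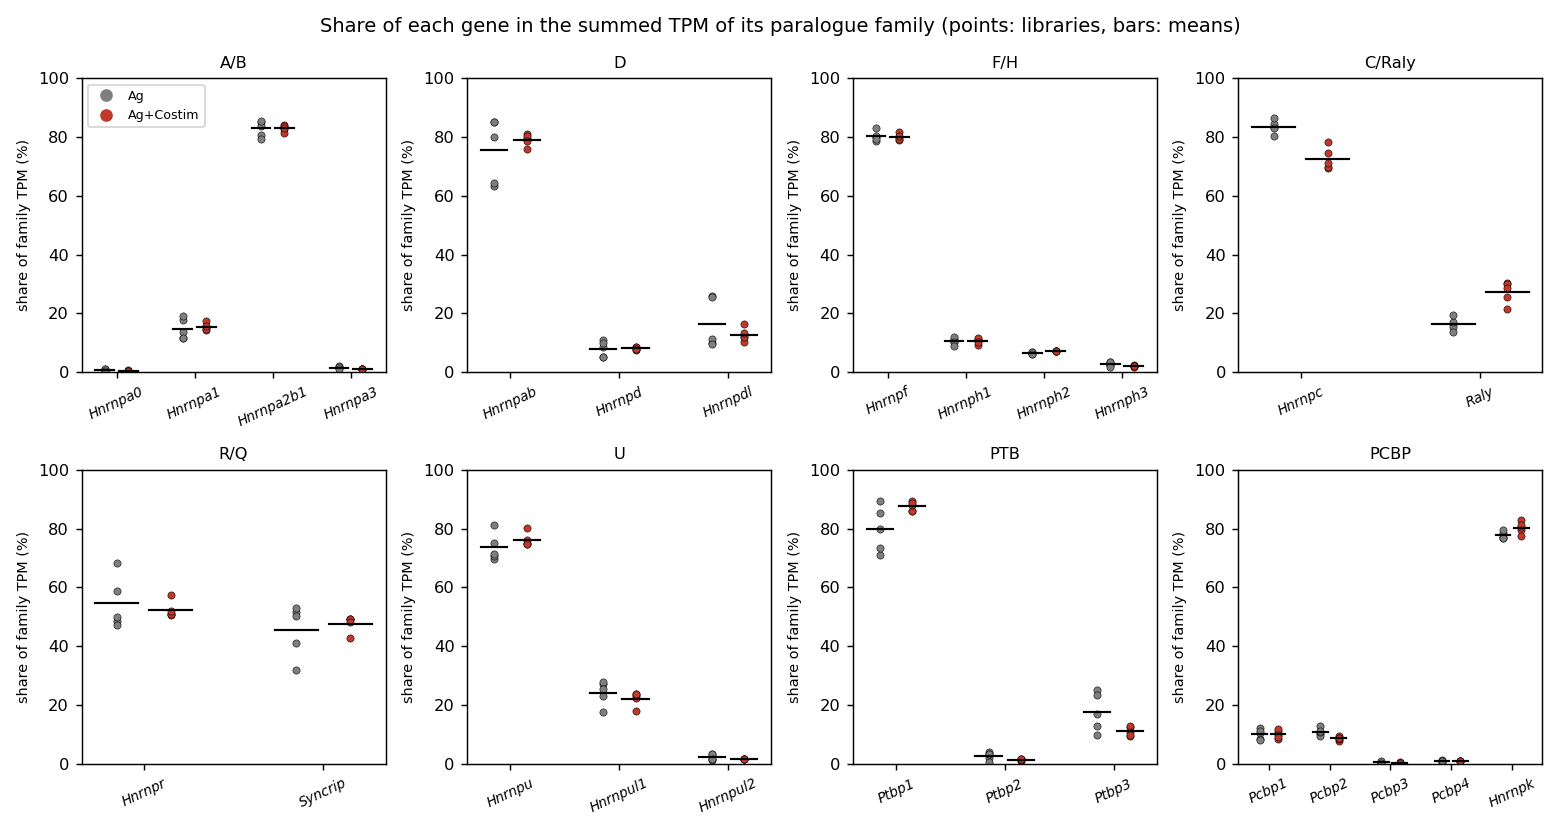
Share of each gene in the summed TPM of its paralogue family (percent, y axis) for 8 families, with a point for each Ag (grey) and Ag+Costim (red) library and a bar at each mean. Raly and Hnrnpc separate the groups most clearly, at 27.3% against 16.4% and 72.7% against 83.6%, and most other genes overlap.

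hnRNP M, which binds GU-rich RNA and takes part in exon skipping, came from Hnrnpm (chr17:33646233-33686860, minus strand) at 258, 562, 377, 298 and 502 CPM in Ag and 628, 618, 595, 766 and 702 CPM in Ag+Costim. Ag replicate 2 lay just under the lowest Ag+Costim library, and no overlap occurred (log2 fold change 0.73, SE 0.22, edgeR adjusted p = 0.221). Hnrnpr (chr4:136310942-136359447, plus strand), a relative of Syncrip, measured 83.6, 140.3, 114, 114 and 128 CPM in Ag and 169, 171, 183, 195 and 189.9 CPM in Ag+Costim. Its Ag values were closer together than those of most other members, and its standard error was among the smaller ones (log2 fold change 0.65, SE 0.15, edgeR adjusted p = 0.154). Syncrip (hnRNP Q), a cytoplasmic and nuclear binder of A-rich sequence, overlapped at 132 ± 60.7 against 225 ± 25.1 CPM.

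hnRNP U and its relatives are large scaffold-binding proteins. Hnrnpul1 (chr7:25721165-25754757, minus strand) measured 96.4, 134, 154, 112 and 148 CPM in Ag and 184, 189, 192, 214 and 206 CPM in Ag+Costim. No Ag library reached the costimulated range, and Ag replicate 3 was the highest of them (log2 fold change 0.61, SE 0.15, edgeR adjusted p = 0.169). Hnrnpu (852 ± 328 against 1345 ± 119 CPM) and Hnrnpul2 (16.7 ± 2.95 against 21.7 ± 2.98 CPM) overlapped. Reads of Hnrnpu and of Cox20, which overlaps it on the other strand, cannot be told apart in this unstranded library type. The same limit touches Hnrnpab with Phykpl, Hnrnpk with Rmi1, Hnrnph3 with Rufy2, Ptbp1 with Plppr3 and Pcbp2 with Map3k12. Further members overlap an annotated gene on the other strand, among them Hnrnpr (Gm27022), Dazap1 (Gm15122) and Pcbp4 (Gpr62). Raly (with the gene a) and Hnrnpm (with March2) overlap an annotated gene on the same strand.

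Dazap1, an RNA recognition motif protein, acts in splicing and translation. Dazap1 (chr10:80261486-80288408, plus strand) measured 35.2, 82.9, 65.5, 45.9 and 106 CPM in Ag and 121, 127, 126, 137 and 125 CPM in Ag+Costim. The Ag+Costim values lay within a narrow band above all Ag libraries (67.1 ± 28.5 against 128 ± 5.84 CPM, log2 fold change 0.93, SE 0.26, edgeR adjusted p = 0.201). Khsrp, a KH-domain protein of mRNA decay and splicing, overlapped at 35.4 ± 13.7 against 64.1 ± 11.3 CPM, as did the AU-rich element binder Hnrnpd at 36.5 ± 15.4 against 67.8 ± 13.3 CPM. Its relatives Hnrnpdl (log2 fold change 0.54, SE 0.23) and Hnrnpab (0.45, SE 0.50) and the X-linked Rbmx (hnRNP G, 0.48, SE 0.24) also overlapped. Hnrnpab ran from 141 to 957 CPM among Ag libraries.

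The polypyrimidine tract-binding (PTB) proteins bind pyrimidine-rich RNA upstream of exons and repress them. Ptbp1 (chr10:79854427-79864771, plus strand), the form used outside neurons, measured 166, 491, 370.0, 217 and 511 CPM in Ag and 509.6, 516, 573, 635 and 603 CPM in Ag+Costim. Its groups touched, since Ag replicate 5 exceeded Ag+Costim replicate 1 (351 ± 156 against 567 ± 54.4 CPM, log2 fold change 0.69, SE 0.30, edgeR adjusted p = 0.267). Ptbp3, found mainly in blood-forming cells, measured 109, 152, 154, 126 and 121 CPM in Ag and 152, 158, 146, 152 and 147 CPM in Ag+Costim. These values overlapped (log2 fold change 0.19, SE 0.13), and the sign turned to -0.091 with total counts and -0.047 with upper-quartile scaling. Ptbp2, the paralogue known from neurons, measured 10.6, 12.1, 13.0, 11.7 and 4.95 CPM in Ag and 10.8, 10.4, 6.92, 9.62 and 10.9 CPM in Ag+Costim. Its low level, at 10.5 ± 3.20 against 9.72 ± 1.65 CPM, showed no separation (log2 fold change -0.10, SE 0.25), and the sign turned to 0.28 without a filter on low counts. In shares of family TPM, Ptbp1 held 79.8 ± 7.8% in Ag and 87.7 ± 1.6% in Ag+Costim with overlap.

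Poly(C)-binding proteins (PCBPs) and hnRNP K share KH domains that grip C-rich RNA, and they act in splicing, mRNA stability and translation. Hnrnpk (chr13:58391142-58403343, minus strand) measured 761, 1407, 1027, 881 and 1502 CPM in Ag and 1686, 1606, 1577, 1912 and 1743 CPM in Ag+Costim. Ag replicate 5 came near Ag+Costim replicate 3, without overlap (log2 fold change 0.61, SE 0.21, edgeR adjusted p = 0.238). Pcbp1, an intronless gene, measured 59.4, 157, 95.0, 62.3 and 149 CPM in Ag and 119.9, 159, 168, 161 and 137 CPM in Ag+Costim. Ag replicates 2 and 5 lay inside the costimulated range (log2 fold change 0.51, SE 0.28). Pcbp2 measured 84.1, 106, 76.7, 83.5 and 147 CPM in Ag and 103, 107, 109, 116 and 109 CPM in Ag+Costim. Ag replicate 5 was the highest of all 10, and the small log2 fold change of 0.13 (SE 0.18) turned to -0.10 with total counts and -0.088 with upper-quartile scaling. Pcbp3 measured 5.25, 5.34, 3.93, 6.89 and 4.15 CPM in Ag and 2.19, 3.16, 6.24, 5.61 and 3.50 CPM in Ag+Costim. At this level the groups overlapped throughout (log2 fold change -0.30, SE 0.31). Pcbp4 measured 6.68, 8.89, 10.2, 8.64 and 13.3 CPM in Ag and 12.7, 11.4, 13.0, 13.4 and 12.6 CPM in Ag+Costim, where Ag replicate 5 alone reached the costimulated range (log2 fold change 0.40, SE 0.18). By TPM, Pcbp2 held 10.9 ± 1.3% of the family in Ag and 8.58 ± 0.73% with costimulation, not overlapping by a narrow margin (lowest Ag 9.55%, highest Ag+Costim 9.53%), while Hnrnpk held 77.7% and 80.3% with overlap.

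Other RNA-binding gene lists, none of whose genes passed edgeR's adjusted threshold, were set beside the 30 genes. Of 30 related repressors outside the group, 16 were higher at an unadjusted p under 0.05 and 11 did not overlap, with a median log2 fold change of 0.51 (range -3.68 to 1.15). Of 16 SR proteins, which favour exon inclusion, 6 were higher at that level and 4 did not overlap, with a median of 0.54 (range -0.77 to 1.06). The medians of both lists were close to that of the 30 genes. Among 20 enzymes and importers that modify or carry hnRNPs, 7 were higher and 4 did not overlap (median 0.24, range -0.70 to 0.76). Among 20 genes known as splicing targets of hnRNPs, 4 passed the unadjusted p, 3 of them higher (median 0.14, range -2.49 to 0.72). Of these targets, 1 lay above and 1 below without overlap. Beside these lists, 7.89% of all genes tested were higher at an unadjusted p under 0.05. Of genes at 10 CPM or more, 11.3% lay above without overlap and 0.22% below. These shares are not matched to the lists for level.

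Promoter sequence was read for members with an entry in RefSeq (GRCm38.p6), since the fitted fold change was above 0 for most members. Of the 30 genes, 26 had at least 1 window of 300 bases (250 before the start), 36 windows in all. Ptbp3, Pcbp3, Pcbp4 and Hnrnpul2 had none. The palindrome CACGTG, which needs no second strand and is the core of the E-box bound by MYC-type factors, was in a window of 8 of 26 genes (30.8%), against 8.09% of 27025 genes and 12.5% of 6822 genes at 10 CPM or more. These 8 were Hnrnpa3, Hnrnpd, Hnrnpf, Hnrnph2, Hnrnpm, Ptbp1, Pcbp1 and Dazap1. Among them, only Hnrnph2, Hnrnpm and Dazap1 had levels without overlap between the groups. CCGGAA (or TTCCGG on the other strand, an ETS core) was in 30.8% of members, 16.7% of all genes and 37.8% at 10 CPM or more. GGGCGG (or CCGCCC) was in 80.8%, 38.2% and 70.6%, CCAAT (or ATTGG) in 57.7%, 41.1% and 43.8%, and TATAAA (or TTTATA) in 11.5%, 15.7% and 7.80%. Members had 1.38 windows per gene and all genes 1.22, and a gene counts if any window matches, so the members had slightly more sequence to match in. No test was applied, and a match is a run of letters and not a bound site. The promoters below are shown for the gene with the largest difference and for 2 genes with CACGTG. Capitals mark CACGTG in Dazap1 and Ptbp1 and, in Raly, the 14-base start segment whose use is described further on. Each run holds 260 bases on the plus strand, at chr2:154790860-154791119 (Raly), chr10:80264764-80265023 (Dazap1) and chr10:79854182-79854441 (Ptbp1). The Dazap1 window sits at RefSeq's start, downstream of the first start in GENCODE.
Raly: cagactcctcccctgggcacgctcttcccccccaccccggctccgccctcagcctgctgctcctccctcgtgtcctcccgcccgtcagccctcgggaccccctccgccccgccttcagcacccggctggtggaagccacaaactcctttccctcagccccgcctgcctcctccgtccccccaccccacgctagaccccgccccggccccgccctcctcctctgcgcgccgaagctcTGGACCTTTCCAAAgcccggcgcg
Dazap1: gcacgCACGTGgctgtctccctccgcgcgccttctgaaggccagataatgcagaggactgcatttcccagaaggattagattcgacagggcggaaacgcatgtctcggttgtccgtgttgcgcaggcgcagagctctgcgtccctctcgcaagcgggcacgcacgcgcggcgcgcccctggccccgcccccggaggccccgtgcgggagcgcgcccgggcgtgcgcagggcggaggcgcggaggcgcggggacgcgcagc
Ptbp1: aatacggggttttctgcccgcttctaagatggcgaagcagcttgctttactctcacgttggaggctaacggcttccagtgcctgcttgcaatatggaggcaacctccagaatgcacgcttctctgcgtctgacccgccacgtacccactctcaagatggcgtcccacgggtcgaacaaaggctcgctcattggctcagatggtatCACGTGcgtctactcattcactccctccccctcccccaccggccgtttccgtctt

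Use of alternative transcripts was compared within each gene by edgeR's diffSpliceDGE on transcript counts. Calls required a BH under 0.05 for the gene and a transcript whose share moved by over 0.1 as a fraction. Of 28 members tested 0 were called, beside 0.527% of 10442 genes, and 3 members (Ptbp3, Hnrnpd and Hnrnpc) had an unadjusted p under 0.05, beside 11.5% of all genes tested. limma's diffSplice called 1 member, Hnrnpk, beside 1.38% of genes. edgeR called 1 without Ag replicate 2 (Pcbp2), beside 1.6% of genes, and 2 without Ag replicate 5 (Hnrnpd and Ptbp3), beside 3.45%.

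Some individual transcripts separated the groups without reaching that call. Counting transcripts with a mean share of 5% or more of their gene in a group, 4 of 85 member transcripts did not overlap, or 4.71%, beside 2.59% of 23553 such transcripts. Hnrnpc-209, a coding transcript, held 28.5, 30.8, 28.6, 27.2 and 29.4% of Hnrnpc counts in Ag and 37.0, 36.5, 35.6, 32.9 and 38.4% in Ag+Costim. All Ag+Costim libraries exceeded all Ag libraries, with Ag+Costim replicate 4 the nearest. Ptbp1-202, a coding form that skips the 78-base exon between its RNA-binding domains, held 27.3, 9.08, 27.1, 27.1 and 17.8% in Ag and 28.6, 32.9, 30.8, 31.6 and 27.4% in Ag+Costim. The groups lay next to each other, since 3 Ag libraries were within 1 percentage point of the lowest Ag+Costim library. Ptbp1-206, which also skips that exon and has a longer last exon, held 5.27 ± 2.08% in Ag and 1.15 ± 0.77% in Ag+Costim and was the 1 transcript that was lower. Inclusion of the 78-base exon itself overlapped between the groups, at 70.7 ± 10.3% in Ag and 67.4 ± 2.58% in Ag+Costim by transcript counts. Its percent spliced in, pooled per group, was 0.432 and 0.388.

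Splicing repressors commonly restrain themselves through unproductive transcripts, which carry an early stop and are degraded or keep an intron. Transcripts of the annotated classes nonsense-mediated decay and retained intron were therefore set against the other transcripts of each gene with limma. Of 23 members tested, 0 passed a BH of 0.05, beside 0.025% of 8015 genes, and 1 member had an unadjusted p under 0.05, beside 11.4% of all genes tested. Without Ag replicate 5, 1 member (Hnrnpm) was called, beside 1.46% of genes. With library quality weights 8 members were called, beside 27.7% of genes. The unproductive share was lower in Ag+Costim for 17 members and higher for 6, with a median log2 ratio change of -0.28. Over all genes tested that median was -0.51 and 72.1% were lower, so the members' median was nearer to 0 than that of genes at large. The groups overlapped for all 23 members. They also overlapped for most of the 8015 genes tested, of which 188 were lower and 21 higher without overlap.

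The 4 members with the lowest p, all uncalled, were Ptbp3, Hnrnpm, Hnrnpa2b1 and Pcbp3. Ptbp3 went from 0.517 ± 0.310% in Ag to 0.183 ± 0.098% in Ag+Costim (log2 ratio change -1.45, SE 0.55, limma adjusted p = 0.398). Hnrnpm stood at 0.615 ± 0.380% and 0.162 ± 0.040%, and Pcbp3 at 0.043% in Ag with 0 unproductive counts in every Ag+Costim library. These shares are all under 1% of the gene. Hnrnpa2b1 had a sizeable share, 11.6, 4.02, 7.71, 15.6 and 8.29% in Ag and 6.00, 7.12, 8.33, 3.35 and 3.84% in Ag+Costim, with Ag replicates 1 and 4 highest and Ag replicate 2 inside the costimulated range.

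Unproductive RNA made up a large part of some members in both groups. Ptbp1 stood at 40.2, 39.8, 2.25, 41.9 and 35.5% in Ag and 35.9, 28.4, 34.5, 40.1 and 37.0% in Ag+Costim, mostly from the intron-retaining Ptbp1-205. Apart from Ag replicate 3, the 9 other libraries lay between 28.4 and 41.9% in either group. Rbmx held 45.1, 19.3, 18.1, 45.9 and 18.6% in Ag and 21.4 ± 1.17% in Ag+Costim, with Ag replicates 1 and 4 far above the rest. Hnrnph3 (22.0 and 14.9%), Ptbp2 (16.9 and 12.6%), Hnrnpdl (14.2 and 13.6%), Hnrnpa1 (11.3 and 8.38%) and Hnrnpd (10.7 and 9.07%) had intermediate means in Ag and Ag+Costim.

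**Figure D4:**
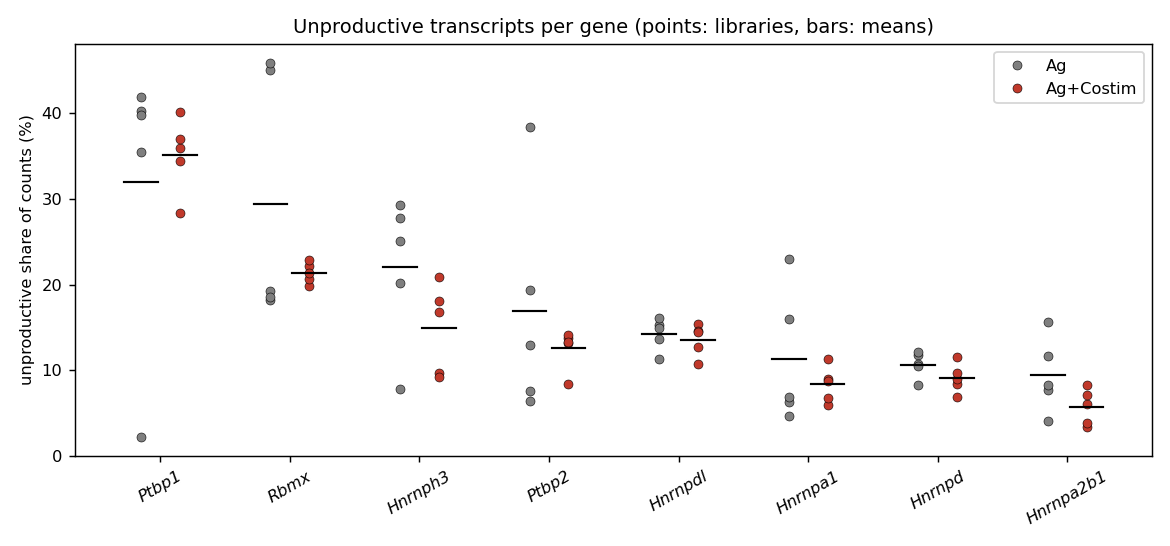
Share of a gene's counts on transcripts annotated as nonsense-mediated decay or retained intron (percent, y axis) for the 8 members with a mean of 5% or more in a group, with a point for each Ag (grey) and Ag+Costim (red) library and a bar at each mean. Ptbp1 is near 35% in both groups except for Ag replicate 3 at 2.25%, and Rbmx is high only in Ag replicates 1 and 4.

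Single exons and ends were followed in the deposited percent spliced in (PSI) values. PSI is the fraction that uses an exon, start or end among the transcripts compared at that place, and not among all transcripts of the gene. Here it is 1 value per group with libraries already pooled, so no test across libraries was possible. The table held 435 events in 28 members, of which 281 were core exons, 64 transcription starts and 61 transcription ends. Hnrnpa0 and Pcbp1 had none. With Whippet's probability above 0.9 and PSI differing by more than 0.05 either way, 6 of the 435 events passed, beside 1.05% of 138940 events in all genes. In genes at 10 CPM or more, 6 of 413 member events passed, beside 0.618% of 102276 events.

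All 6 lay at starts, first exons or ends, and none was a core exon. The first start segment of Raly, chr2:154791096-154791109 (plus strand, capitals in the Raly promoter above), went from a PSI of 0.861 (Ag) to 0.584 (Ag+Costim), and the segment directly after it, chr2:154791110-154791132, had 0.0066 and 0.085 in that order. By pooled PSI, Raly thus started further downstream more often in Ag+Costim. A first exon of Hnrnpf (chr6:117906795-117906839, plus strand) had a PSI of 0.331 and 0.448. A pair of Ptbp3 ends on the minus strand had 0.215 and 0.317 (chr4:59476583-59476647) and 0.0757 and 0.164 (chr4:59475259-59475710). The end of Hnrnph2 at chrX:134604855-134606384 (plus strand) had 0.161 and 0.245. Shares computed in each library from transcript counts overlapped between the groups for all 6. For the first Raly segment they were 22.7 ± 12% in Ag and 19.9 ± 10.9% in Ag+Costim, and for the Hnrnpf exon 34.7 ± 4.4% and 35.0 ± 2.9%. The remaining 4 gave 10.6 and 9.70% (Raly, second segment), 1.70 and 3.85% and then 6.60 and 8.19% (Ptbp3), and 0.144 and 0.127% (Hnrnph2). These are shares of all transcripts of the gene and could lie at another level than PSI, as for the first Raly segment (0.861 against 22.7% in Ag). They cannot show whether the differences in pooled PSI recur in each library.

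Alternative core exons, those with a PSI between 0.05 and 0.95 in a group, numbered 26 in 15 members. In Ag+Costim 11 were higher and 15 lower, 21 differed by 0.05 or less, and the largest difference was 0.123. The median absolute difference was 0.0223, against 0.0318 over 6394 such exons of genes at 10 CPM or more. Of the 26 exons 0 passed the thresholds, and 2.58% of the 6394 did. The 5 that differed by more than 0.05, picked out after their values were seen, were 2 exons of Pcbp3 outside its coding sequence, 1 of Hnrnpa2b1 outside its coding sequence, the 139-base exon of Hnrnph3 and the 57-base exon of Hnrnpd. Of the 25 with annotated transcripts, 11 were coding with a length in multiples of 3, 5 were coding and would shift the frame, and 9 were outside the coding sequence.

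The exons that give the named protein forms, or decide between a productive and an unproductive mRNA, are shown because they set what these genes produce. Hnrnpa2b1 is spliced into A2 and B1, and B1 has an extra exon of 36 bases near its start. Ptbp1 and Ptbp2 each hold a 34-base exon whose skipping shifts the frame and leads to decay of the mRNA, and PTB proteins repress it in both genes. In that pair, capitals mark the 26 of 34 bases that are identical. Hnrnpd has exons of 57 and 147 bases whose combinations make its protein forms. Sequences are given 5′ to 3′ on the gene's strand from GENCODE M21 transcripts. The B1 exon is chr6:51467391-51467426 (minus), the Ptbp1 exon chr10:79862014-79862047 (plus), the Ptbp2 exon chr3:119724612-119724645 (minus), and the Hnrnpd exons chr5:99976534-99976590 and chr5:99963731-99963877 (minus).
Hnrnpa2b1 B1 exon: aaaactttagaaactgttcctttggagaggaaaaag
Ptbp1 exon: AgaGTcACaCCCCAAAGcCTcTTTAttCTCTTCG
Ptbp2 exon: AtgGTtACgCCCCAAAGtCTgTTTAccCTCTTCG
Hnrnpd short exon: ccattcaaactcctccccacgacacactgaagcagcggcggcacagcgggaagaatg
Hnrnpd long exon: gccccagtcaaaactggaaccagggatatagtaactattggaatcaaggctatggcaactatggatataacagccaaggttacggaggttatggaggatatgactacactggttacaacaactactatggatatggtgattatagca

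PSI of the B1 exon was 0.124 (Ag) and 0.137 (Ag+Costim), and transcript counts placed it at 13.8, 19.0, 16.7, 12.6 and 17.5% in Ag and 17.9, 18.1, 16.8, 18.7 and 18.7% in Ag+Costim. A2 was therefore the main form in every library. The Ptbp1 exon had 0.962 and 0.984, and transcript counts gave 96.4 to 99.7% in Ag and 99.0 to 99.5% in Ag+Costim. Inclusion of this Ptbp1 exon thus stood near its ceiling in both groups. It is read from RNA that remains after decay, and it leaves out the intron-retaining Ptbp1 RNA given above. The Ptbp2 exon had 0.259 and 0.252 by PSI but 88.1 ± 7.17% and 84.6 ± 5.34% by transcript counts. The estimates disagree in level for this exon, and neither separated the groups. Such gaps were not limited to low genes. In Ag, the 78-base exon of Ptbp1 had a PSI of 0.432 but 70.7% by transcript counts. The 39-base exon of Pcbp2 had 0.925 but 59.1%. For other exons, such as the B1 exon, the estimates lay closer together. For Hnrnpd the short exon had 0.485 and 0.545 by PSI and 38.3% and 54.0% by transcript counts, where the libraries ran from 15.2 to 60.8% in Ag and from 27.1 to 71.3% in Ag+Costim. The long Hnrnpd exon had 0.613 and 0.598. The exon of 26 bases before the start codon of Hnrnpc (chr14:52098015-52098040, minus strand) had 0.372 and 0.364.

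In 25 of the 26 exons transcripts of both kinds were annotated, and inclusion could be computed in each library. Pooled PSI and transcript counts had the same sign of difference for 21 of them. Inclusion per library did not overlap between the groups for 1 exon and overlapped for the others.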

How the data were processed

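Poly(A) RNA of sorted OT-I CD8+ T cells was sequenced (SMART-Seq v4, Nextera XT, unstranded). Per the submitters' notes and the methods, the authors aligned reads to mm10 with HISAT2 2.1.0, used SAMtools 1.9 for sorting, and took counts of genes and transcripts from StringTie 2.1.0. The authors deposited estimated counts (expected counts) per gene and transcript, which had not been normalized. The authors' Whippet table, as deposited, holds PSI as a fraction pooled per group and a score each for the PSI difference and its probability. The probability served as a threshold only, and the authors' PSI difference was not used. That the first PSI column is Ag was checked against transcript counts: 31 of 37 exons (83.8%) had the same sign. Rows without a GENCODE M21 identifier (0.0458 to 0.308% of counts) were left out. Library totals ran from 59598556 to 639070261, and counts that come from coverage give no exact counting error.

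Naive libraries were not analysed here. Ag and Ag+Costim (5 libraries each) were compared with edgeR 4.0.16 in R 4.3.3 (filterByExpr, TMM, robust quasi-likelihood test, BH over all genes tested). Transcript usage was tested with diffSpliceDGE on transcripts with at least 10 counts in 5 libraries, and unproductive share with limma 3.58.1 on log2 ratios (pseudocount 0.5, mean of at least 100 counts). TPM was computed from transcript counts and lengths. DESeq2 1.42.0, voom weights, scalings, filters, a replicate block and leaving out each library were alternatives. The tests were checked on simulated data. p-values measure the spread between these libraries.

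The members and lists were chosen with earlier results of these data known. Every-library values are given for the 8 largest fold changes without overlap, the 3 lowest fold changes and the PTB and PCBP families. Unproductive shares are given for the 4 lowest p where none was called, and events for up to 8 past the thresholds, plus exons that define named isoforms. Per-library inclusion and transcript-share overlap were added after the data were seen, as were the larger unproductive shares named. Single values of 1 exon and 1 transcript, which the counts include, are not reported here.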

Additional observations from a re-analysis of the deposited data

Results flagged for a closer look

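In groups of 5 libraries, a library was singled out where its gap to the nearest other exceeded Dixon's 95% limit (0.71 of the range for 5 samples). This occurred in 7 of 157 groups of member values, where chance gives 7.85 at 1 in 20, and in 0 of 60 groups in CPM. Ptbp1 had an unproductive share of 2.25% in Ag replicate 3, against 35.5 to 41.9% in the other Ag libraries. That library also had the lowest total and the highest erythroid markers, and the part of either was not tested. Ptbp2 had an unproductive share of 8.38% in Ag+Costim replicate 2, against 13.2 to 14.2% in the others.

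The other 5 were family shares by TPM. In Ag+Costim replicate 3, the library with the largest count total, Hnrnpr held 57.4% of its family (others 50.7 to 51.9%) and Syncrip the remaining 42.6% (48.1 to 49.3%). In the same library Hnrnpu held 80.3% (74.7 to 76.2%) and Hnrnpul1 18.0% (22.2 to 23.9%). Hnrnpul2 held 1.44% in Ag+Costim replicate 4 (1.63 to 1.69%). Shares of one family sum to 100%, so these values are not independent of each other.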

How the results depend on the processing

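edgeR called 0 of the 30 genes in the reported fit and 0 of 24262 overall. DESeq2 called 11 (8064 genes overall) and voom with quality weights 27 (12632 overall). With 1 library left out at a time, edgeR called 0 members throughout, the members' median log2 fold change ran from 0.47 to 0.73, and the genes without overlap numbered 9 to 16, the most without Ag replicate 2. That number was 6 with upper-quartile scaling (3.72% of genes at 10 CPM or more) and 10 with total counts (7.26%). The count of family shares without overlap ran from 4 to 8 (8 without Ag replicate 5). Signs turned for Pcbp2 (-0.10 with total counts, -0.088 with upper quartile, -0.064 with at least 1 CPM in 5 libraries), for Ptbp3 (-0.091, -0.047 and -0.033) and for Ptbp2 (0.28 without a low-count filter, and -0.26 to 0.021 leaving out 1 library). Of 240 other values of log2 fold change, 195 kept direction and side of the threshold, 38 passed it and 7 turned. Scaling moved the median of genes at 10 CPM or more from 0.24 (TMM) to 0.12 (DESeq2 size factors), 0.020 (upper quartile) and 0.00038 (total counts).

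Members called for transcript usage were 1 with limma's diffSplice and 0 to 2 leaving out 1 library. For unproductive share they were 8 of 23 with quality weights, beside 27.7% of all genes, and 0 to 1 leaving out 1 library. Events past the thresholds fell from 6 to 1 of 435 at a probability over 0.95, beside 0.607% of all events. They fell to 3 at a PSI difference over 0.1, beside 0.883%. Both falls are by construction. For the others the cause was not tested. A replicate block called 0 members (median log2 fold change 0.63). Same-numbered libraries did not deviate together (correlations 0.21, -0.013, -0.20, -0.44 and 0.049), and none correlated best with its own number. PSI was pooled per group and allowed no leaving out. Low genes (Ptbp2, Pcbp3) limit what these counts can show.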

Other observations

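Hnrnph1 and Hnrnph3 each hold an alternative coding exon of 139 bases whose length is no multiple of 3, noticed after the values were seen. The exons are chr11:50381459-50381597 (plus strand) and chr10:63018760-63018898 (minus strand), and 126 of their 139 bases are identical, marked by capitals below. Pooled PSI was 0.909 in Ag and 0.957 in Ag+Costim for Hnrnph1, and 0.626 and 0.731 for Hnrnph3. In transcript counts, inclusion in Hnrnph3 was 57.5, 77.4, 60.5, 60.1 and 56.2% in Ag and 73.8, 64.4, 81.3, 81.2 and 72.0% in Ag+Costim, with Ag replicate 2 inside the costimulated range. Inclusion in Hnrnph1 was 92.8 to 97.1% in Ag and 95.4 to 97.1% in Ag+Costim. Neither event passed the thresholds.
Hnrnph1 exon: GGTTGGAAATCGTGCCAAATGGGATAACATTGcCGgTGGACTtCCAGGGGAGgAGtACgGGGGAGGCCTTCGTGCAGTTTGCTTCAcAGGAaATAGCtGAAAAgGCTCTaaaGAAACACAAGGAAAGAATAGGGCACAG
Hnrnph3 exon: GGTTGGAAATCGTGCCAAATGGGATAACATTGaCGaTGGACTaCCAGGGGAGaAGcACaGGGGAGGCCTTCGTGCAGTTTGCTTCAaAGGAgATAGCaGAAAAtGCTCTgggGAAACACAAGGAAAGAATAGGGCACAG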
